A study of Mus musculus with 12 samples.

Results

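The cytosolic ribosomal protein genes encode the proteins of the ribosome that translates messenger RNA outside the mitochondria. They were selected by gene symbol alone. A member has a symbol of Rpl or Rps followed by a number, with an optional a, x, y or l and further digits, or is Rpsa, Rplp0, Rplp1 or Rplp2. Pseudogene symbols and the S6 kinases were left out. The rule gave 83 members among 17358 genes, of which 51 encode proteins of the large subunit and 32 proteins of the small subunit. The filter on low counts kept 81 members, 49 of the large and 32 of the small subunit, and left out Rpl3l and Rpl32l. Another 14 symbols that begin with Rpl or Rps fell outside the rule, among them Rpl36al.

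A eukaryotic ribosome joins a small subunit, which reads the messenger, to a large subunit, which forms the peptide bond, and most of the proteins are present in a single copy. Most of the messengers carry a 5' terminal oligopyrimidine (TOP) tract, a run of C and T at the transcript start through which mTORC1 and the protein LARP1 adjust their translation. Several ribosomal proteins also act away from the ribosome: free RPL5 and RPL11 bind MDM2 and so raise p53, and phosphorylated RPL13A takes part in silencing inflammatory messengers in macrophages. Loss of a single copy of many of these genes causes Diamond-Blackfan anaemia, a failure of red cell production.

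RNA was sequenced from perivascular macrophages of the mouse brain, the resident macrophages that lie along its blood vessels. The libraries came from C57BL mice of 18 months (aged, n = 5) and 3 months (young, n = 7), which the series text calls biological replicates. No genetic change or treatment is given for either group. How many animals or cells went into each library is not stated, and the p-values below refer to the spread among libraries.

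Library totals lay between 23214836 and 30628787 estimated counts. Summed markers of perivascular macrophages reached 12552 to 18694 normalised CPM (counts scaled to the library total with TMM factors) in the aged and 13695 to 23539 in the young libraries. Microglial markers summed to 2622 to 4070 and 2497 to 4664 normalised CPM, endothelial markers to at most 4.32 and 36.2. Markers of choroid plexus and ependyma stood at 178 to 1090 in the aged and 59.4 to 152 in the young libraries, with no overlap. Aged libraries 1, 3 and 4 stood apart on the first principal component of all tested genes (15.5% of the variance), at -129 to -146 against -24.8 to 93.3 for all others. Many of the values below, though not all, are therefore also given without these 3 libraries. That leaves only aged libraries 2 and 5, and aged library 2 was the lowest of all libraries for 18 members. Values without the 3 libraries thus rest in good part on aged library 2. The part of the choroid plexus markers and of the split on the first component in the results below was not tested.

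The sequences around the transcript starts of 7 members are shown to see whether they hold a pyrimidine tract, and these are among the members whose counts are described first. Each window covers 15 bases before and 15 bases after the start in RefSeq (GRCm38.p6) and is written 5' to 3' on the gene's strand. The longest run of at least 5 C or T is in capitals, or the first of them where runs tie. The windows therefore join the promoter to the first bases of exon 1. The starts are RefSeq's and were not measured in these libraries.
Rpl22l1: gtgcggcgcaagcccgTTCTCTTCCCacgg
Rps7: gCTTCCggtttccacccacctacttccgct
Rps27: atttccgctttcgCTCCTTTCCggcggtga
Rpl35: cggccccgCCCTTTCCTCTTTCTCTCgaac
Rpl5: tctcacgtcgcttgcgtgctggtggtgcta
Rps6: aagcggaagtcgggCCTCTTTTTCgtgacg
Rpl18: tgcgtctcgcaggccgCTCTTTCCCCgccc

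These windows lie at chr3:28805493-28805522 for Rpl22l1, chr12:28635939-28635968 for Rps7, chr3:90213634-90213663 for Rps27 and chr2:39005117-39005146 for Rpl35. The others lie at chr5:107900513-107900542 for Rpl5, chr4:86857353-86857382 for Rps6 and chr7:45718056-45718085 for Rpl18. Rpl22l1, Rpl5 and Rpl18 are read on the plus strand and the rest on the minus strand. The longest run had 18 bases in Rpl35, 10 in Rpl22l1, Rps6 and Rpl18, 9 in Rps27 and 5 in Rps7. In the Rpl5 window no run reached 5 bases. In that of Rps7 the capitals mark only the first of several runs of 5 bases. The others, tttcc and cttcc, lie just before and after the start.

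Of the 83 members, 63 had an entry among 27025 genes with RefSeq promoters, which span 250 bases before to 50 after the start. For each pattern below, a gene counted where any of its entries held it. A run of at least 8 C or T on the sense strand within 25 bases of the start was present in 54.0% of these members, against 22.3% of all these genes and 23.04% of the 7586 other tested genes. CTTTCC on the sense strand in the same stretch, which overlaps such runs, was present in 17.5% of members and 2.92% of all genes. CCGGAA, the core of the ETS family motif, occurred on either strand anywhere in the window in 55.6% of members, 16.7% of all genes and 34.2% of other tested genes. GGGCGG, the GC box, occurred on either strand in 60.3% of members, 38.2% of all genes and 69.1% of other tested genes. TATAAA between 50 and 15 bases before the start was found in 1.59% of members (1 of 63), 2.78% of all genes and 1.46% of other tested genes. The 5 patterns were chosen after the members' windows had been viewed, and the shares are descriptions.

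The first comparison asked whether the family differed between aged and young macrophages. No member passed the test (edgeR quasi-likelihood test, Benjamini-Hochberg adjusted p under 0.05 over 9550 genes), where 0.0105% of all tested genes did, and the same was so with DESeq2 (1.27% of all genes), limma-voom (0.0105%) and the bias-adjusted mode of edgeR (0.398%). The smallest adjusted p among members was 0.331 in the main test. It was 0.104 with DESeq2 and 0.0971 with the bias-adjusted mode of edgeR, both for Rpl22l1, and 0.421 with limma-voom. At an unadjusted p under 0.05, 7 members had higher and 1 had lower counts in the aged libraries, 9.88% of the 81, against 5.97% of all tested genes (3.85% higher, 2.12% lower). The 7 were Rpl22l1, Rps7, Rpl35, Rps14, Rps27, Rpl5 and Rps6, and the other was Rpl18. The aged and young groups did not separate for any member, while they separated for 0.597% of all tested genes.

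Fitted fold changes of the family were small. The median log2 fold change, aged over young, was 0.08 over the members and -0.01 over all tested genes, and the members ran from -0.61 (Rps10) to 1.16 (Rpl22l1). Positive values were found for 52 of the 81 members (64.2%), against 49.5% of all tested genes. Both values moved with the libraries: 41 members were positive, with a median of 0.0029, without aged libraries 1, 3 and 4. There were 43 (median 0.026) without aged library 1, 53 (0.17) without library 2, 46 (0.037) without library 4 and 42 (0.011) without library 5. Leaving out young libraries 1, 4 or 7 gave 47, 47 and 45 positive members with medians of 0.033, 0.049 and 0.047, and leaving out young library 3 gave 54 with 0.13. The count also moved with the scaling: 46 were positive with upper-quartile factors, 49 with DESeq2, 65 with an offset for transcript length and 29 on the FPKM scale. The all-gene median stood at 0.27 with the length offset and at -0.19 on the log2(FPKM + 1) scale, where the members' medians were 0.32 and -0.08. Relative to all genes the members' median was higher by 0.09 in the main comparison, 0.05 with the length offset and 0.11 on the log2(FPKM + 1) scale. Over all settings this excess ran from 0.01 (libraries numbered 1 to 5 of each age) to 0.21 (without aged library 2), and limma-voom gave 0.20. With the replicate number as a block, 39 of 80 members were positive, with a median of -0.0068.

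**Figure D1:**
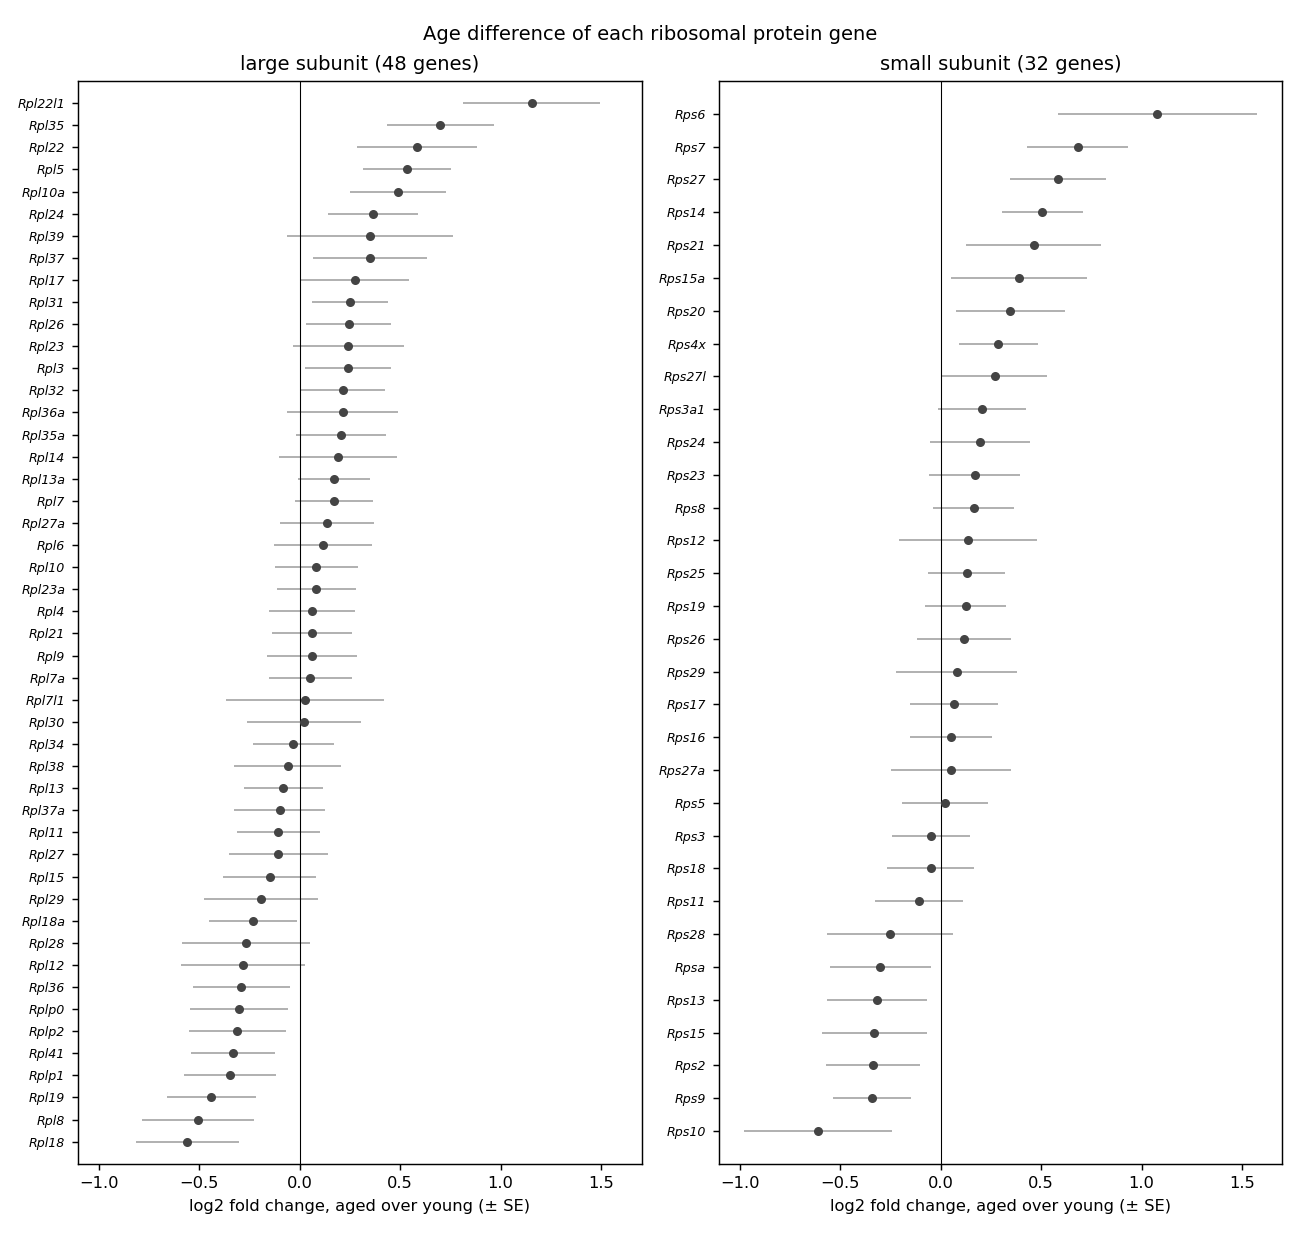
Log2 fold change of tested members, aged over young, with its standard error, for 48 of the 49 tested large subunit genes (left; Rpl39l, with a standard error of 2.17, is left out) and 32 small subunit genes (right), ordered by value. Points run from -0.61 for Rps10 to 1.16 for Rpl22l1, and no member passed the adjusted threshold.

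Rpl22l1, a paralog of Rpl22 known from T cell development, had the smallest p of the family. Its normalised CPM were 448, 123, 576, 590 and 629 in aged libraries 1 to 5 and 137 to 366 in the young ones (median 200). Aged library 2 was the lowest of all 12, and the other 4 aged libraries lay above every young one. Over all 12 libraries the fit gave a log2 fold change of 1.16 ± 0.34 (SE; adjusted p = 0.331). It gave 1.403 without aged library 2 (adjusted p = 0.0197) and 0.80 without aged libraries 1, 3 and 4 (adjusted p = 0.9997).

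Rps7, whose protein sits in the small subunit and binds MDM2, showed the same arrangement. Aged libraries 1 to 5 held 555, 267, 890, 801 and 696 normalised CPM, and the young ones 301 to 496 (median 424). Aged library 2 was again the lowest of 12 and the rest of the aged group lay above all young libraries. The log2 fold change was 0.68 ± 0.25 (adjusted p = 0.547), 0.88 without aged library 2 (adjusted p = 0.0489) and 0.25 without aged libraries 1, 3 and 4.

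Rps27, a zinc finger protein of the small subunit and the member with the highest FPKM, read 3360, 953, 1975, 2800 and 2469 normalised CPM in the aged libraries. Young libraries spanned 1265 to 1817 with a median of 1520. The aged group surrounded the young one, with library 2 below it and the other 4 above it. Its log2 fold change was 0.58 ± 0.24 (adjusted p = 0.657), 0.78 without aged library 2 (adjusted p = 0.0461) and 0.13 without aged libraries 1, 3 and 4.

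Rps14, the haploinsufficient gene of the 5q deletion syndrome, gave 2545, 1166, 1872, 2376 and 2449 normalised CPM in the aged libraries, and 1197 to 1779 (median 1433) in the young. Here too aged library 2 was the lowest and the rest exceeded all young libraries. The log2 fold change was 0.51 ± 0.20 (adjusted p = 0.623), 0.66 without aged library 2 (adjusted p = 0.0957) and 0.29 without aged libraries 1, 3 and 4.

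**Figure D2:**
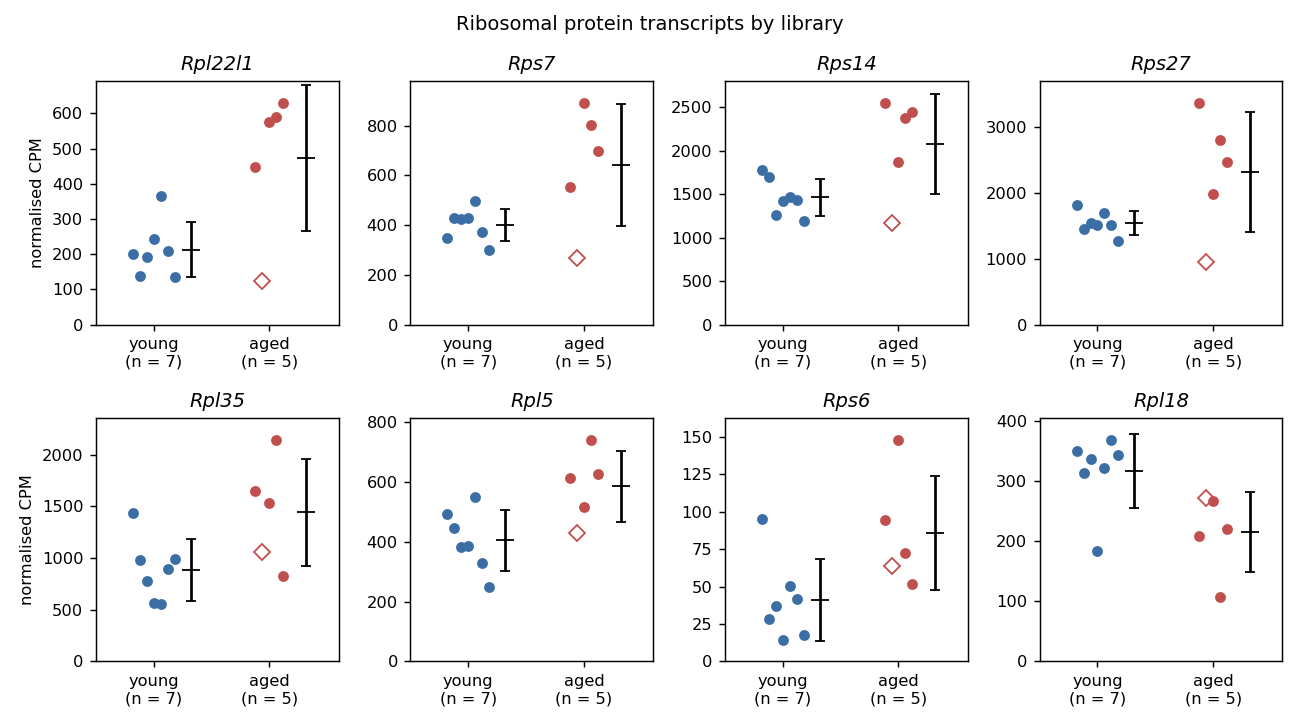
Normalised CPM of leading members in each library, with young libraries on the left, aged libraries on the right, bars for the mean ± SD and aged library 2 as an open diamond. For Rpl22l1, Rps7, Rps27 and Rps14 the diamond sits below all other points while the other 4 aged points lie above the young ones.

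Leaving out aged library 2 raised the number of called genes from 1 to 75, or 0.755% of the genes then tested (0.614% higher, 0.141% lower). The members called were Rpl22l1, Rps27 and Rps7, all higher in aged libraries. The library was singled out after its values had been seen, so the same count was made for every aged library. With aged library 2 set aside, the other 4 aged libraries lay above all 7 young ones for 6 members, Rpl22, Rpl22l1, Rps14, Rps21, Rps27 and Rps7, which is 7.41% of members against 1.96% of all tested genes. They lay below for Rpl8 alone, where the share over all genes was 0.984%. Setting aside aged library 3 gave Rpl10a above (0.545% of all genes) and none below (0.482%). Setting aside library 1, 4 or 5 gave no member, with 0.618%, 0.534% and 0.555% of all genes above and 0.471%, 0.366% and 0.597% below.

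Rpl35, which lies at the rim of the peptide exit tunnel, had 1645, 1062, 1532, 2144 and 829 normalised CPM in the aged libraries. The young ones ran from 559 to 1436 with a median of 899. Aged library 5 was the lowest of its group and the ranges overlapped. The log2 fold change was 0.70 ± 0.27 (adjusted p = 0.580), and 0.09 without aged libraries 1, 3 and 4.

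Rpl5, which carries 5S ribosomal RNA into the large subunit together with Rpl11, measured 611, 430, 516, 740 and 626 normalised CPM in the aged and 249 to 549 (median 387) in the young libraries. Aged libraries 2 and 3 fell within the young range. Its log2 fold change was 0.53 ± 0.22 (adjusted p = 0.657), and 0.38 without aged libraries 1, 3 and 4. Its partner Rpl11 stood at 326 ± 38.7 (SD, n = 5) against 351 ± 70.6 (SD, n = 7), a log2 fold change of -0.11 ± 0.21.

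Rps6, the substrate of the S6 kinases downstream of mTORC1, was among the lowest members. Aged libraries held 94.4, 64.0, 148, 72.1 and 51.5 normalised CPM, and young ones 14.3 to 95.5 with a median of 37.0. Young library 1 was higher than 4 of the aged libraries. The log2 fold change was 1.08 ± 0.50 (adjusted p = 0.791), and 0.51 without aged libraries 1, 3 and 4.

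Rpl18, a large subunit protein linked to Diamond-Blackfan anaemia, was the only member with lower counts in aged libraries at an unadjusted p under 0.05. Its normalised CPM were 208, 271, 267, 107 and 220 in the aged libraries and 184 to 368 (median 336) in the young. All aged libraries lay below 6 of the 7 young ones, and young library 4 fell inside the aged range. The log2 fold change was -0.56 ± 0.26 (adjusted p = 0.791), and -0.37 without aged libraries 1, 3 and 4.

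Other members with small p and lower counts in the aged group were Rpl19, Rpl8, Rps9, Rps10 and Rpl41. Rpl8 had 120, 193, 108, 70.3 and 140 normalised CPM in the aged libraries and 141 to 255 (median 174) in the young, with aged library 2 alone inside the young range. Rps9, a protein of the messenger channel, read 489, 572, 418, 467 and 534 against 492 to 827 (median 577). Rpl19 stood at 413 ± 101 (SD, n = 5) against 560 ± 127 (SD, n = 7). For these 5 genes the log2 fold changes lay between -0.61 (Rps10) and -0.33 (Rpl41), and adjusted p was at least 0.888. Without aged libraries 1, 3 and 4 they were -0.18 for Rpl19, -0.11 for Rpl8, -0.19 for Rps9, -0.32 for Rps10 and -0.16 for Rpl41.

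Levels were compared between genes on the FPKM scale, which divides by transcript length. The members with the highest mean FPKM over the 12 libraries were Rps27 (6541), Rps14 (3202), Rps29 (3044), Rpl35 (2760) and Rpl41 (1557). The median over members was 470, with 417 for the large and 638 for the small subunit. Well below these stood Rps20 at 57.5, Rpl22 at 56.0, Rps15a at 53.5, Rps6 at 42.5 and Rpl7l1 at 30.3. Part of this order rests on the length that the authors' FPKM divided by: it was 5084 bases for Rps15a and 2138 for Rpl22, against 640 and 474 bases for the shortest principal GENCODE transcript. Such an excess of over 1.5 times was found for 6 of 82 members, the others being Rpl31, Rpl21, Rpl7l1 and Rps6. For Rps20 both lengths were long, 3387 bases in the FPKM and 3706 in GENCODE, so this check could not flag it. Its normalised CPM were 221 ± 73.2 (SD, n = 5) in the aged and 174 ± 42.7 (SD, n = 7) in the young libraries. The length in the FPKM could also be shorter than in GENCODE, as for Rpl35 (381 against 946 bases) and Rps24 (729 against 1613). With counts divided by the GENCODE length instead, Rps27 was still first of 82, Rpl35 moved from 4th to 8th and Rps6 was 78th.

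Large and small subunit transcripts were then set against each other. The median log2 fold change was 0.06 for the large subunit (30 positive, 19 negative) and 0.12 for the small subunit (22 positive, 10 negative). This order reversed when aged library 1 was left out (large 0.026, small 0.020). It also reversed under the replicate block (large 0.0072, small -0.0071). The small subunit kept the higher median in every other setting. Both medians were negative on the log2(FPKM + 1) scale (large -0.089, small -0.065). Setting aside aged libraries 1, 3 and 4 gave -0.018 for the large and 0.037 for the small subunit. The summed FPKM of large over small subunit members was 0.786, 1.11, 0.927, 0.919 and 0.804 in aged libraries 1 to 5, and 0.879 to 1.01 (median 0.985) in the young. The young libraries lay close together at 0.963 ± 0.053 (SD, n = 7), and the aged ones, at 0.909 ± 0.129 (SD, n = 5), reached beyond them on both sides. A sum over members is led by a few abundant genes. As a ratio of medians over members the values were 0.705 ± 0.039 and 0.721 ± 0.062.

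As a share of all estimated counts the family made up 3.66, 2.62, 2.66, 3.34 and 4.26% in the aged libraries and 2.70 to 4.04% (median 3.06%) in the young. The means were 3.31 ± 0.69% (SD, n = 5) and 3.29 ± 0.47% (SD, n = 7), a difference well inside the spread. Of the summed FPKM the members took 7.36 ± 2.03% and 7.19 ± 1.43%. In bulk libraries, fewer cells of a type and less RNA per cell cannot be told apart.

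**Figure D3:**
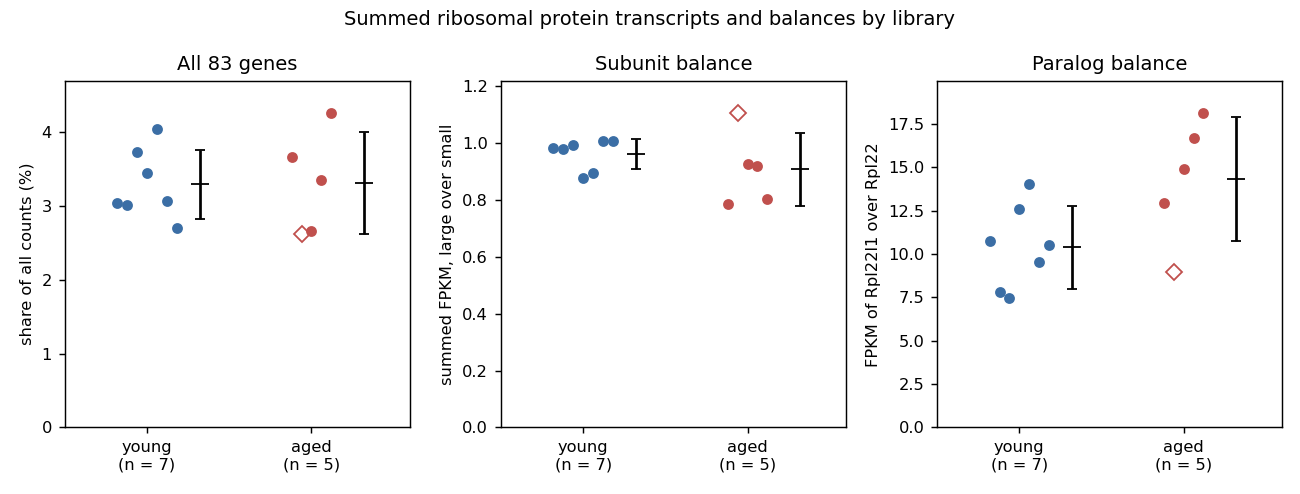
Share of estimated counts taken by ribosomal protein genes, ratio of large to small subunit FPKM, and ratio of Rpl22l1 to Rpl22 FPKM, in each library. Bars give the mean ± SD, and aged library 2 is an open diamond. All of these quantities overlap between the ages, and aged library 2 has the lowest share (2.62%) and the highest ratio of large to small subunit (1.11).

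Within the large subunit, the P stalk is the flexible arm that recruits elongation factors. Its 4 genes, Rplp0, Rplp1, Rplp2 and Rpl12, all had log2 fold changes below 0, from -0.35 to -0.28. None passed the test (smallest adjusted p 0.999), and Rplp0 turned to 0.19 with the length offset and to 0.00 without aged libraries 1, 3 and 4. Rplp0, which anchors the stalk, read 398, 526, 261, 233 and 347 normalised CPM in the aged and 251 to 538 (median 454) in the young libraries. Rplp1 stood at 358 ± 89.4 (SD, n = 5) against 455 ± 109 (SD, n = 7), and Rplp2 at 134 ± 32.1 against 166 ± 20.1. The groups overlapped for every stalk gene.

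Around the peptide exit tunnel, where nascent chains leave the ribosome, 7 of 8 genes had positive log2 fold changes (median 0.26), and Rpl19 was the exception. None passed the test and 1, Rpl35, had an unadjusted p under 0.05. On the FPKM scale 6 of 8 were positive with a median of 0.07, and again 6 of 8 (median 0.06) without aged libraries 1, 3 and 4. Without aged library 1 alone the median was 0.16. Of the 21 Diamond-Blackfan anaemia genes among the members, 15 were positive and 6 negative (median 0.12). Unadjusted p was under 0.05 for 5 of them, with 4 higher (Rps7, Rps27, Rpl5, Rpl35) and 1 lower (Rpl18), where 5.97% of all tested genes passed that limit (3.85% higher, 2.12% lower). On the FPKM scale this list had 9 positive and 12 negative values. Without aged libraries 1, 3 and 4 it had 13 and 8 (median 0.08), and without aged library 1 alone 11 and 10 (median 0.05). Its median was 0.27, 0.07, 0.06 and 0.23 without aged library 2, 4 or 5 or young library 3.

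Members known for further roles had groups that overlapped. Rps19, the gene most often mutated in Diamond-Blackfan anaemia, stood at 908 ± 176 (SD, n = 5) against 832 ± 176 (SD, n = 7) normalised CPM. Rpl13a, of the interferon-linked silencing complex, had 401 ± 51.4 against 357 ± 38.3. Rps3, which also serves in DNA repair, had 441 ± 85.4 against 456 ± 68.9, Rps27a, which is made as a fusion to ubiquitin, 650 ± 317 against 628 ± 196, and Rpl10, which completes the large subunit, 979 ± 271 against 924 ± 156. Their log2 fold changes were between -0.05 and 0.17, below the respective standard errors, and the adjusted p was 0.999 for each. For Rps19, Rps27a and Rpl10 the sign turned on the FPKM scale, and for Rps3 with the length offset.

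Several ribosomal proteins have a paralog that can take the same place. All 11 tested genes of these pairs had positive log2 fold changes (median 0.29), but none passed the test, and on the FPKM scale 4 of them turned negative. Without aged libraries 1, 3 and 4 the count was 7 of 11 (median 0.15), and without aged library 4 alone 8 of 11 (median 0.16). Without aged library 5 the median was 0.15. Reads can be split between near-identical copies, so their levels are uncertain. Rpl22, the partner of Rpl22l1, had 164, 68.0, 182, 165 and 170 normalised CPM in the aged and 62.6 to 128 (median 96.2) in the young libraries. As for Rpl22l1, aged library 2 was low and the other 4 aged libraries exceeded all young ones, with a log2 fold change of 0.58 ± 0.30 (adjusted p = 0.923), and 0.23 without aged libraries 1, 3 and 4.

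The FPKM of Rpl22l1 was 12.95, 8.995, 14.9, 16.7 and 18.2 times that of Rpl22 in aged libraries 1 to 5, and 7.44 to 14.1 times (median 10.5) in the young. Aged libraries 1 and 2 fell in the young range and the other 3 above it. The size of this ratio carries the long transcript length used for Rpl22. Rps27l, a p53 target, had 0.133 ± 0.056 (SD, n = 5) times the FPKM of Rps27 in the aged group and 0.148 ± 0.044 (SD, n = 7) times in the young. The same ratio of Rpl7l1 to Rpl7 was 0.042 ± 0.010 and 0.045 ± 0.023.

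Further paralogs were detected in part of the libraries or barely at all. Rpl39l, known from the testis, had counts of 322 and 200 in aged libraries 4 and 5, and 131, 6, 267 and 300 in young libraries 1, 3, 4 and 7, with 0 in the remaining 6. Its partner Rpl39 stood at 170 ± 93.8 (SD, n = 5) against 133 ± 65.2 (SD, n = 7) normalised CPM. Rpl3l, the muscle form of Rpl3, had at most 4.12 estimated counts in any library, where 3 counts correspond to 0.098 to 0.129 CPM, while Rpl3 itself had 373 ± 62.7 against 316 ± 72.1 normalised CPM. Rpl32l had 128 counts in aged library 3, 4 in young library 3, 0.95 in young library 6 and 0 elsewhere. Rps4x, the X-linked small subunit gene, had 586 ± 81.6 against 481 ± 102.

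The lowest and highest values of the members gathered in a few libraries. Aged library 2 was the lowest of all 12 for 18 members and the highest for none. Young library 7 was lowest for 16, and aged library 3 and young library 4 for 12 each. Aged libraries 4, 5 and 1 were highest for 15, 14 and 12 members and young library 3 for 10. The median deviation of the members from their 12-library mean (log2) was -0.21 in aged library 2 and -0.11 in aged library 3, against 0.24, 0.16 and 0.23 in aged libraries 1, 4 and 5. Young libraries ran from -0.27 in library 7 to 0.22 in library 3, so the aged group lay within about the same range.

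**Figure D4:**
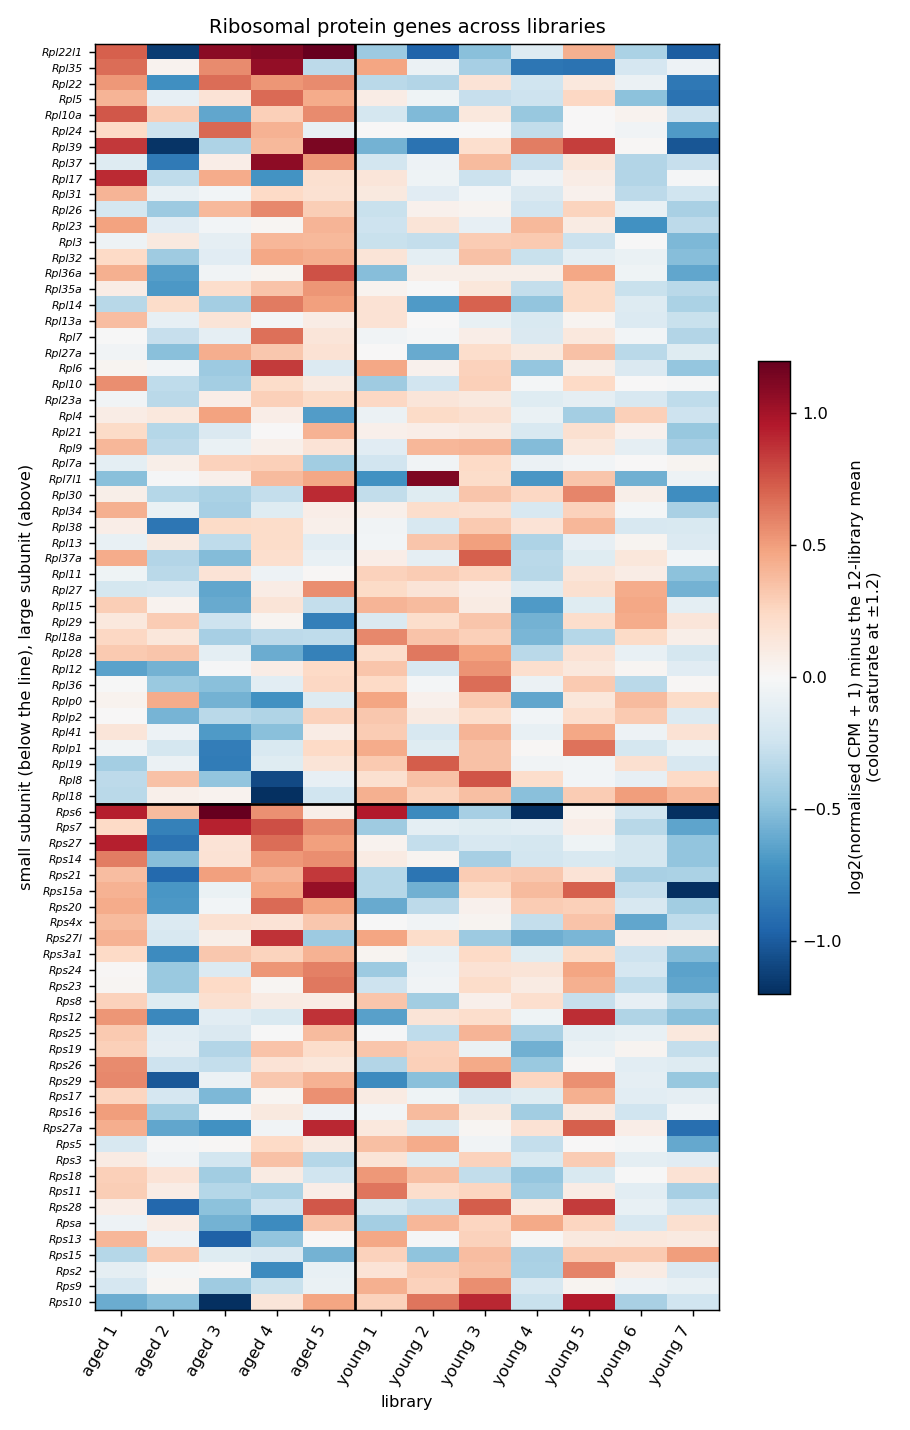
Difference of each member from its 12-library mean, in log2(normalised CPM + 1), for 80 members in rows and the 12 libraries in columns, with colours ending at -1.2 and 1.2. Aged library 2 and young library 7 are the columns with the most members at their lowest value (18 and 16), and the columns do not sort by age.

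The spread between libraries of a group was summarised as the coefficient of variation (SD over mean), with no test. Over the 80 tested members other than Rpl39l, the median coefficient of variation was 26.9% in the aged and 21.5% in the young group. Over the 2270 other tested genes with at least the lowest mean of these members (59.6 normalised CPM) it was 43.7% and 36.0%. Apart from that floor, the other genes were not matched to the members for level. Among young libraries the steadiest member was Rpl7a at 10.1%, followed by Rpl7 at 10.7% and Rpl13a at 10.7%. The least steady were Rps6 at 67.1%, Rpl7l1 at 53.1% and Rpl39 at 48.9%.

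Ribosomal protein transcripts are short, with a median length of 652 bases among members and 2568 among all genes, so length was examined beside age. Among other tested genes of at least 50 normalised CPM, the median log2 fold change was 0.11 under 500 bases, -0.03 from 500 to under 1000, -0.01 from 1000 to under 3000 and 0.30 at 3000 or more. The members had 0.08 (27 genes), 0.07 (40 genes), 0.06 (12 genes) and 0.37 (2 genes) in the same ranges. Long genes outside the family deviated by -0.15 (log2) in aged library 2 and by 0.21 to 0.48 in the other aged libraries, against -0.17 to 0.20 in the young. The part of transcript length in the members' values was not tested beyond the offset given above.

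**Figure D5:**
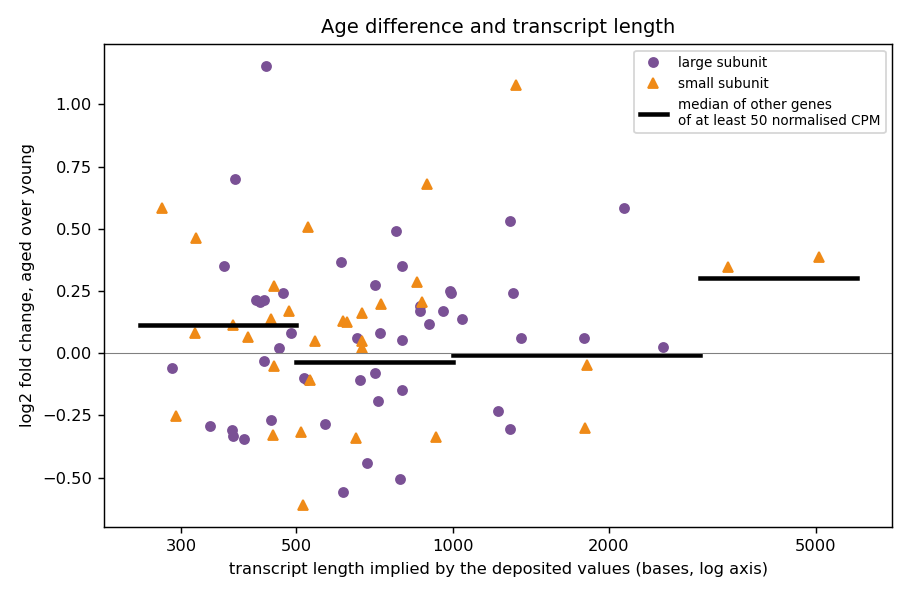
Log2 fold change, aged over young, against transcript length in bases on a log axis, for ribosomal protein genes and, as black lines, medians of other genes of at least 50 normalised CPM. Most members lie under 1000 bases, near the medians of other genes of their length, and the medians rise to 0.30 at 3000 bases or more.

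The genes around the family were described by lists of its partners and regulators, none of which held a gene past the threshold. Among ribosome components whose symbols fall outside the rule, Fau, Rack1 and Rpl36al had log2 fold changes of -0.28, 0.17 and -0.14. Of 20 genes with known TOP messengers (Fau and Rack1 among them), 11 were positive and 9 negative (median 0.21), with 6 higher at an unadjusted p under 0.05, against 3.85% of all tested genes. The median was 0.03 on the FPKM scale and 0.02 without aged library 1, with 10 positive and 10 negative in both, and 0.11 without aged library 4. Tpt1, the translationally controlled tumour protein, read 1586, 758, 1788, 2093 and 1183 normalised CPM in the aged and 611 to 1066 (median 851) in the young libraries. Aged library 2 alone lay in the young range, and the log2 fold change was 0.80 ± 0.24 (adjusted p = 0.331). Eef1d, a subunit of the elongation factor 1 exchange complex, had the smallest p among the negative ones, at -0.89 ± 0.48 (adjusted p = 0.957).

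Among 27 initiation and elongation factors, 18 were positive and 9 negative (median 0.19). The direction turned on the log2(FPKM + 1) scale (12 and 14, median -0.07), with limma-voom (13 and 14, median -0.0061) and without aged libraries 1, 3 and 4 (11 and 16, median -0.06). Without aged library 3 or 4 or young library 2 the median was 0.07, 0.11 and 0.13. Eif4g2, which drives cap-independent initiation, had 468, 350, 371, 600 and 639 normalised CPM in the aged and 171 to 385 (median 267) in the young libraries, overlapping at the lower end. Its log2 fold change was 0.86 ± 0.24 (adjusted p = 0.289). Eif5a, the hypusinated factor that eases stalled ribosomes, had 110, 204, 107, 139 and 173 against 217 to 347 (median 262). All aged libraries lay below all young ones, an arrangement found for 0.272% of all tested genes, with a log2 fold change of -0.83 ± 0.24 (adjusted p = 0.306).

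Of the 53 tested ribosome biogenesis genes 25 were positive and 28 negative (median -0.05). This was 14 and 33 (median -0.40) on the log2(FPKM + 1) scale, 34 and 19 (median 0.15) with the length offset and 18 and 35 (median -0.30) without aged libraries 1, 3 and 4. Near 0, the median turned to 0.024 without young library 3 or 5, and it was -0.20 without aged library 1 and -0.13 without aged library 2. Npm1, a nucleolar chaperone of ribosome assembly, had 355 ± 150 (SD, n = 5) against 190 ± 51.0 (SD, n = 7) normalised CPM, a log2 fold change of 0.90 ± 0.27 (adjusted p = 0.352). Nmd3, the export adaptor of the large subunit, had -0.62 ± 0.32 (adjusted p = 0.936). Among 21 regulators of the mTORC1 and Myc pathways 8 were positive and 13 negative (median -0.25). The direction turned with the length offset (13 and 8, median 0.21) and without young library 7 (10 and 10, median 0.06). The median was -0.45, -0.46, -0.38 and -0.13 without aged library 4 or 5 or young library 2 or 5. Pdcd4, a translation inhibitor degraded after S6 kinase phosphorylation, stood at 1.06 ± 0.34 (adjusted p = 0.399) and the S6 kinase gene Rps6kb1 at -1.17 ± 0.76 (adjusted p = 0.999). The 16 tested genes of ribosome rescue and quality control had 8 positive and 8 negative values, with a median near 0 (-0.03) that lay between -0.13 and 0.13 when each library was left out in turn. With limma-voom the median was -0.44 (7 and 9). In the libraries numbered 1 to 5 of each age it was -0.22 (7 and 9), and -0.76 (6 and 10) with the replicate number as a block. The list included Zfp622 at 0.95 ± 0.46 (adjusted p = 0.848) and Ascc3 at -2.52 ± 1.32 (adjusted p = 0.941).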

How the data were processed

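The authors deposited 1 table of 17358 genes with an estimated count per gene and library, of which 88.2% to 90.6% were whole numbers. The authors also deposited normalised values without a named unit, read here as FPKM because they scale with library total and a plausible transcript length. Per the submitters' processing notes, RSEM 1.2.12, HISAT2 2.0.4, DESeq2 1.4.5 and Bowtie2 2.2.5 were used with GRCm38 (mm10); their roles are not stated. Per the labels' protocols, libraries were made by SMART-seq2 from oligo-dT primers, without strand information or molecular identifiers, so counting floors cover counting error only.

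Estimated counts were rounded and compared with edgeR 4.0.16 in R 4.3.3 (TMM, filterByExpr, legacy and robust quasi-likelihood estimation, Benjamini-Hochberg over 9550 genes). Standard errors come from the F statistic. The test was checked on simulated data with planted changes larger than those of the members. That check does not cover changes of the members' size. DESeq2 1.42.0, refitted on the genes kept by the same filter after a first run on all genes, and limma 3.58.1 (voom, and trend on log2(FPKM + 1) and log2(FPKM + 0.1)) were alternatives, as were upper-quartile factors, no filter, edgeR legacy=FALSE, a length offset (loess, span 0.5), a replicate block and leaving out libraries. All pairs of libraries differed by more than sampling noise (chi-square over its degrees of freedom, 275 to 783).

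Named members were those with the 6 smallest p in each direction, the 5 highest mean FPKM, the lists of roles, P stalk and paralogs, and the untested ones. From each other list, the gene with the smallest p in each direction was named. Members and lists were chosen with earlier results of these data known. Damaged symbols (24) were replaced through Entrez identifiers with RefSeq, which matched 17244 genes and all 83 members. Promoters and start windows are RefSeq GRCm38.p6.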

Additional observations from a re-analysis of the deposited data

Results flagged for a closer look

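In 4 of the 74 groups of values checked, 1 library lay far from the rest of its group. Chance gives about 1 in 20. Rpl18 read 183.5 normalised CPM in young library 4, where the other young libraries had 313 to 368. Rpl22 read 68.0 in aged library 2, below 164 to 182 in the other aged libraries. Rpl7l1 read 158.7 in young library 2, above 43.4 to 91.1, and the ratio of its FPKM to that of Rpl7 was 0.0902 there, against 0.0252 to 0.0501.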

How the results depend on the processing

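The number of all genes called, 1 as reported, was 121 with DESeq2, 38 with edgeR legacy=FALSE, 13 without a filter, 6 on log2(FPKM + 1), 4 with upper-quartile factors, 2 with the length offset and 0 on log2(FPKM + 0.1) or without aged libraries 1, 3 and 4. Leaving out each library in turn gave 0 to 75 genes and 0 to 3 members, 75 and 3 without aged library 2. No member was called under any other alternative run. The members' median log2 fold change was 0.32 with the length offset. The replicate number as a block gave 0 genes and, added after the data were seen, the same 10 libraries without it also gave 0. Libraries of 1 number correlated at -0.03 to 0.10, and 2 of 5 best with their own number. Such correlations cannot tell whether libraries of 1 number share a batch. The main comparison treated the samples as unpaired. Of 1007 values of 44 named genes, 950 kept direction and call, 5 passed the threshold (Rpl22l1, Rps7, Rps27 and Tpt1 without aged library 2, Eif5a with DESeq2) and 52, of 12 genes that passed the test in no setting, changed sign, as follows (log2 fold change). The cause was not tested.

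On log2(FPKM + 0.1) and log2(FPKM + 1): Rps29 -0.11 and -0.11, Rps19 -0.046 and -0.046, Rps27a -0.17 and -0.17, Rpl10 -0.10 and -0.10, Rpl7 -0.012 and -0.012, Rpl7l1 -0.00025 and -0.0025, and Rpl39l -0.40 and -0.053. With the length offset: Rps29 -0.088, Rplp0 0.19, Rpl11 0.10, Rps3 0.56 and Nmd3 0.031. In the block's 10 libraries without and with the replicate block: Rps29 -0.044 and -0.039, and Rps27a -0.090 and -0.19, with Rpl7l1 at -0.11 without it. Without aged libraries 1, 3 and 4: Rps29 -0.21, Rplp0 0.0029, Rpl10 -0.089, Rps27l -0.26, Rpl7 -0.010 and Rpl39l -0.018. Rpl7l1 was -0.021 with DESeq2 and -0.024 with upper-quartile factors, and Rpl39l -0.43 with limma-voom.
Leaving out each library in turn: Rps29 -0.091 to 0.27, Rps3 -0.17 to 0.00043, Rps27a -0.26 to 0.19, Rpl10 -0.10 to 0.17, Rpl7 -0.021 to 0.26, Rpl7l1 -0.11 to 0.27 and Rpl39l -1.02 to 0.74.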
